A study of Rattus norvegicus with 6 samples.

Results

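Albumin and 4 other carrier proteins that the liver secretes into the blood were followed across 6 rat RNA libraries. The 5 genes were taken by Ensembl ID: Alb (ENSRNOG00000002911), Ttr (ENSRNOG00000016275), Rbp4 (ENSRNOG00000015518), Apoe (ENSRNOG00000018454) and Apob (ENSRNOG00000005542). All 5 IDs were present among the 26689 gene IDs of the files, and all 5 passed the filter on low counts that 9932 genes passed. The names came with the list of IDs. The reference at hand holds all 5 symbols but no Ensembl IDs, so the pairing of ID and name could not be checked against it. The roles given here rest on those names.

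The study asks whether acting on vasoconstriction or inflammation improves liver ischemia reperfusion injury (IR), in which the portal vein is clamped for a time and blood flow then returns. Treated IR animals were given 9 mg/kg of Etanercept, a soluble receptor drug that captures tumor necrosis factor, 16 to 18 h before IR. The same animals had an infusion of nitroglycerin, which releases nitric oxide and widens vessels, at 6 µg/kg/min, starting ahead of IR and going on through it. IR animals had ischemia reperfusion alone, and control animals were healthy and untreated. No sham operation is named, so IR against control also sets operated against unoperated animals. Each condition was measured in hepatocytes freshly isolated by collagenase perfusion and in whole liver, from different animals, with RNA taken 1 day after IR in the operated groups. Each library is a pool of 3 animals, so there is 1 library per group. Strain, sex and age are not given in the labels.

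Reads in genes numbered 1945331 to 7160610 per library. A difference between 2 libraries has no replicate check here. The intervals given cover counting error only, and not variation between pools. They treat reads as independent, but reads without molecular identifiers are not independent molecules, so the intervals can be too narrow. Levels are CPM, read counts per 1e6 gene reads, scaled by TMM, a method that sets the bulk of genes equal between libraries. Scaling by library total in place of TMM moved all log2 ratios of a pair by -0.64 to 0.39, so the plain share of gene reads is given beside the scaled level. In bulk RNA, fewer cells of a type and less RNA per cell cannot be told apart. No marker of hepatocytes or of other liver cells could be matched to an ID, so the labelled preparations were not checked against markers.

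Albumin is the main protein of blood plasma, made by hepatocytes, and carries fatty acids, bilirubin, hormones and drugs. Transthyretin (Ttr) carries thyroxine and holds retinol-binding protein 4 (Rbp4), which brings vitamin A from liver stores to tissues, in a joint complex. Apolipoprotein B (Apob) is the structural protein of very low density lipoprotein, and apolipoprotein E (Apoe) is a ligand by which lipoprotein particles are taken up through receptors. Albumin, Ttr and Rbp4 are known as negative acute phase proteins, whose synthesis goes down in inflammation.

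The upstream sequences of Alb and Rbp4 are shown because the share of Alb varied most between libraries and that of Rbp4 least. They are the 150 bases before the annotated start, 5′ to 3′, from RefSeq on the GRCr8 build, matched by symbol. Alb lies on the minus strand at chr14:17906980-17907129 and Rbp4 on the minus strand at chr1:245313552-245313701. Capitals mark matches to CCAAT (the CCAAT box), GTTAAT (part of the sequence bound by the hepatocyte factor HNF1) and TATAAA (the TATA box), on either strand.
Alb: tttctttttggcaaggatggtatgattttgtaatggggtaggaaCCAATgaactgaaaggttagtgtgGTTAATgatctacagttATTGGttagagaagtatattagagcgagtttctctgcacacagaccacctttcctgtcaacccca
Rbp4: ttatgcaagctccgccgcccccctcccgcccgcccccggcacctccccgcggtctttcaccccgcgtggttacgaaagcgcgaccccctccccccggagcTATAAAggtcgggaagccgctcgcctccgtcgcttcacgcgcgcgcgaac

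In the 250 bases before its start, Alb held CCAAT at 106 to 102 bases upstream and again, on the other strand, at 65 to 61 bases, with GTTAAT between them at 82 to 77 bases. Rbp4 held TATAAA at 50 to 45 bases. The table gives 3 starts for Apoe, 1 of which had a CCAAT on the other strand at 176 to 172 bases. Ttr had no match to these 3 motifs or to TGTTTAC, a forkhead motif, and Apob has no entry in the table. No 2 of these matches overlapped. Of 33469 windows of 250 bases, 34.0% held CCAAT, 12.9% TATAAA, 6.45% GTTAAT and 3.21% TGTTTAC on either strand. These are matches of letters only.

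Alb had more reads than any other gene in all 6 libraries. It took 8.10% of gene reads in hepatocytes after treated IR, 19.4% in hepatocytes after IR and 10.2% in control hepatocytes. In whole liver it took 8.76% after treated IR, 13.8% after IR and 14.9% in control. In control liver, the library with the fewest reads, the 95% Wilson interval ran from 14.8% to 14.9%. The highest share was 2.40 times the lowest. Hepatocytes after IR held the highest share, and the treated IR libraries of both preparations held the lowest shares of the 6.

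Ttr took 0.930% of gene reads in hepatocytes after treated IR, 0.889% after IR and 0.905% in control hepatocytes. In whole liver it took 0.702% after treated IR, 0.902% after IR and 1.19% in control. Its shares in the 3 hepatocyte libraries thus lay within a narrow band, while the liver libraries differed more, with control highest and treated IR lowest. Rbp4 was the steadiest of the 5 in share, with a highest share 1.26 times the lowest, close to 1.27 for Apoe. In TMM-scaled level it was not the steadiest, at 1.96 times against 1.90 for Apoe and 1.87 for Apob. Rbp4 took 0.403%, 0.377% and 0.365% in hepatocytes after treated IR, after IR and in control. In whole liver it took 0.320%, 0.345% and 0.352% in the same order. Every hepatocyte library was above every liver library in the share of Rbp4, by a narrow margin between the controls. With Alb left out of the total, control hepatocytes (0.406%) were below control liver (0.413%). How many of all genes are set apart in share in this way was not computed. By TMM-scaled level, 17.3% of all genes did not overlap between the preparations, in either direction.

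Apoe took 1.18% of gene reads in hepatocytes after treated IR, 1.24% after IR and 1.03% in control hepatocytes. In whole liver it took 0.970% after treated IR, 1.13% after IR and 1.04% in control. Within each preparation the IR library was the highest for Apoe. Apob took 0.344% in hepatocytes after treated IR, 0.459% after IR and 0.386% in control hepatocytes. In whole liver it took 0.413% after treated IR, 0.425% after IR and 0.298% in control. The lowest Apob share was in control liver and the highest in hepatocytes after IR. Read counts grow with transcript length, and no transcript lengths were at hand, so the shares of different genes are not ranked against each other.

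**Figure D1:**
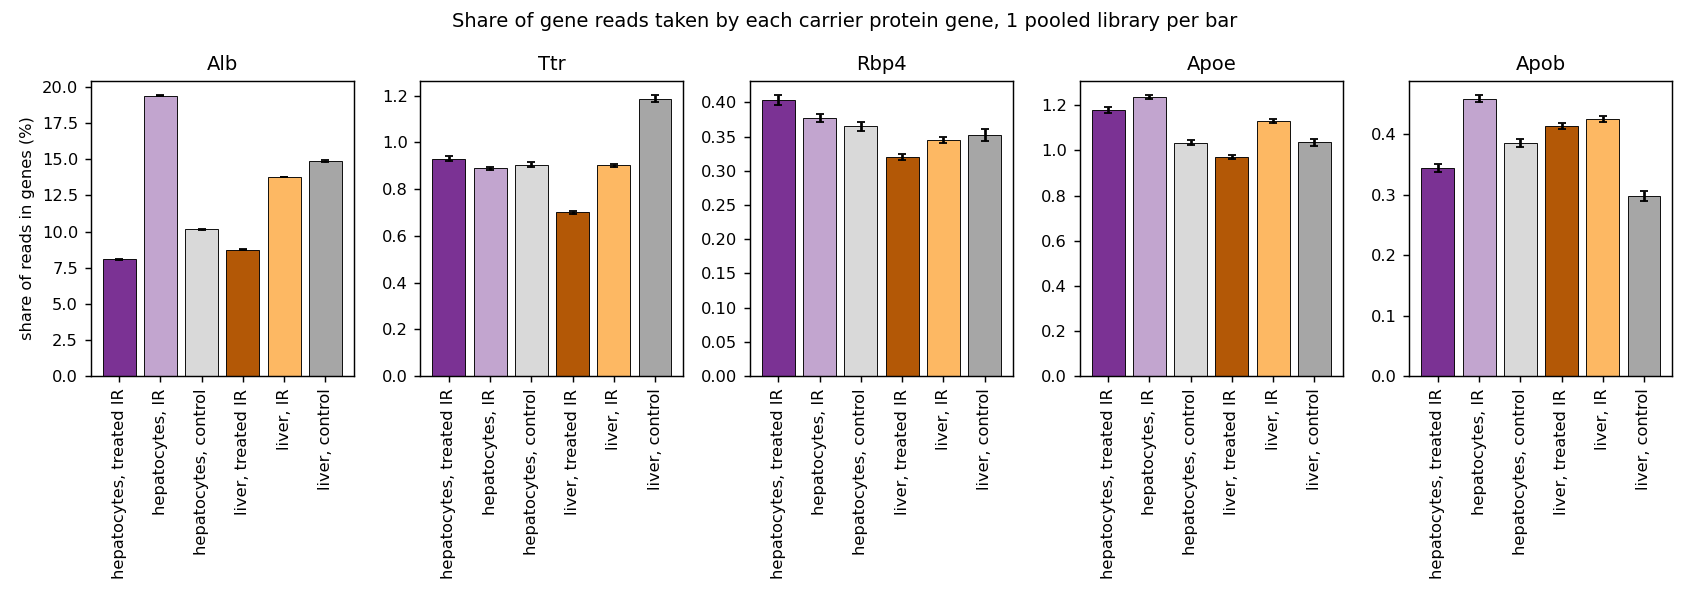
Share of all reads in genes, in percent, taken by each of the 5 genes in each of the 6 libraries, 1 pooled library per bar, with 95% Wilson intervals for counting error. Alb reached 19.4% in hepatocytes after IR and was at 8.10% and 8.76% in the treated IR libraries, while Rbp4 stayed between 0.320% and 0.403%.

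Together the 5 genes took 10.95% of gene reads in hepatocytes after treated IR, 22.4% after IR and 12.8% in control hepatocytes. In whole liver they took 11.2% after treated IR, 16.6% after IR and 17.7% in control. Without Alb the sum of the other 4 ran only from 2.40% in liver after treated IR to 2.96% in hepatocytes after IR. Most of the variation in the joint share was thus that of Alb.

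The first comparison sets treated IR against IR, and so follows the drugs given. Alb was lower in treated IR in both preparations. In hepatocytes it was at 102128 CPM after treated IR and 200208 CPM after IR, a ratio of 0.510 (95% counting interval 0.508 to 0.512). In whole liver it was at 70822 CPM after treated IR and 146135 CPM after IR, a ratio of 0.485 (0.483 to 0.486). Both ratios stayed below 1 under all 6 scalings and filters tried, between -1.45 and -0.97 on the log2 scale in hepatocytes and between -1.06 and -0.65 in liver. These settings are not 6 separate checks, since some lie close to TMM. DESeq2 size factors, another scaling, moved all log2 ratios by 0.0002 in hepatocytes and -0.0025 in liver. Leaving out the filter moved them by -0.04 and -0.01, and library totals by -0.29 and 0.39.

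The other 4 genes were lower after treated IR in liver, and by TMM scaling, though not by every scaling, 3 of them were higher in hepatocytes. In whole liver all 4 were lower after treated IR than after IR. Ttr was at 5675 CPM after treated IR and 9569 CPM after IR, a ratio of 0.593 (0.586 to 0.60). Apoe had a ratio of 0.654 (0.648 to 0.661), at 7843 CPM after treated IR and 11983 CPM after IR. The ratios of Rbp4 and Apob were 0.707 (0.694 to 0.721) and 0.742 (0.730 to 0.755). All 4 stayed below 1 in liver under the 6 scalings and filters.

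In hepatocytes Ttr was at 11736 CPM after treated IR and 9170 CPM after IR, a ratio of 1.28 (1.26 to 1.30). Rbp4 was at 5083 CPM after treated IR and 3890 CPM after IR, a ratio of 1.31 (1.28 to 1.34). Apoe had a ratio of 1.17 (1.15 to 1.18), at 14884 CPM after treated IR and 12747 CPM after IR. Apob had a ratio of 0.916 (0.894 to 0.938). These directions depend on the scaling for 3 genes. With library totals that leave out Alb, the log2 ratios of Ttr and Rbp4 were -0.12 and -0.09, and that of Apoe was negative with library totals with or without Alb.

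Genes were called where the 2 libraries differed by 2-fold or more and the counting interval left out equality. By this rule 1 of the 5 genes was called in liver and 0 of 5 in hepatocytes for treated IR against IR. The gene was Alb, lower in treated IR. The rule called 2.77% of the 9932 genes in liver and 23.3% in hepatocytes. With library totals the liver call of Alb was lost (log2 ratio -0.65) and Alb was called in hepatocytes (log2 ratio -1.26), as it was with no filter (-1.01). The median log2 ratio over the 5 genes was -0.61 in liver and 0.22 in hepatocytes, against -0.01 and -0.04 over all genes.

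Of the 100 genes with the highest mean CPM, which include all 5, 93 were lower in liver after treated IR, with a median log2 ratio of -0.29, and 22 were lower in hepatocytes, with a median of 0.46. These counts rest on TMM. With library totals 35 of the 100 were lower in liver, with a median of 0.10, and 36 in hepatocytes, with a median of 0.17. With totals that leave out Alb 48 were lower in liver, with a median of 0.02, and 51 in hepatocytes, with a median of -0.02. Among those 100 genes, 2% had a log2 ratio below that of Alb in liver and 4% in hepatocytes. For Ttr, Rbp4, Apoe and Apob the shares were 8%, 20%, 11% and 30% in liver and 39%, 44%, 32% and 20% in hepatocytes. Among all 9932 genes, 0.594% had a log2 ratio below that of Alb in liver and 15.8% in hepatocytes, so Alb was nearer the lower end of all genes in liver than in hepatocytes. The 100 genes were added as a background after the data were seen.

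**Figure D2:**
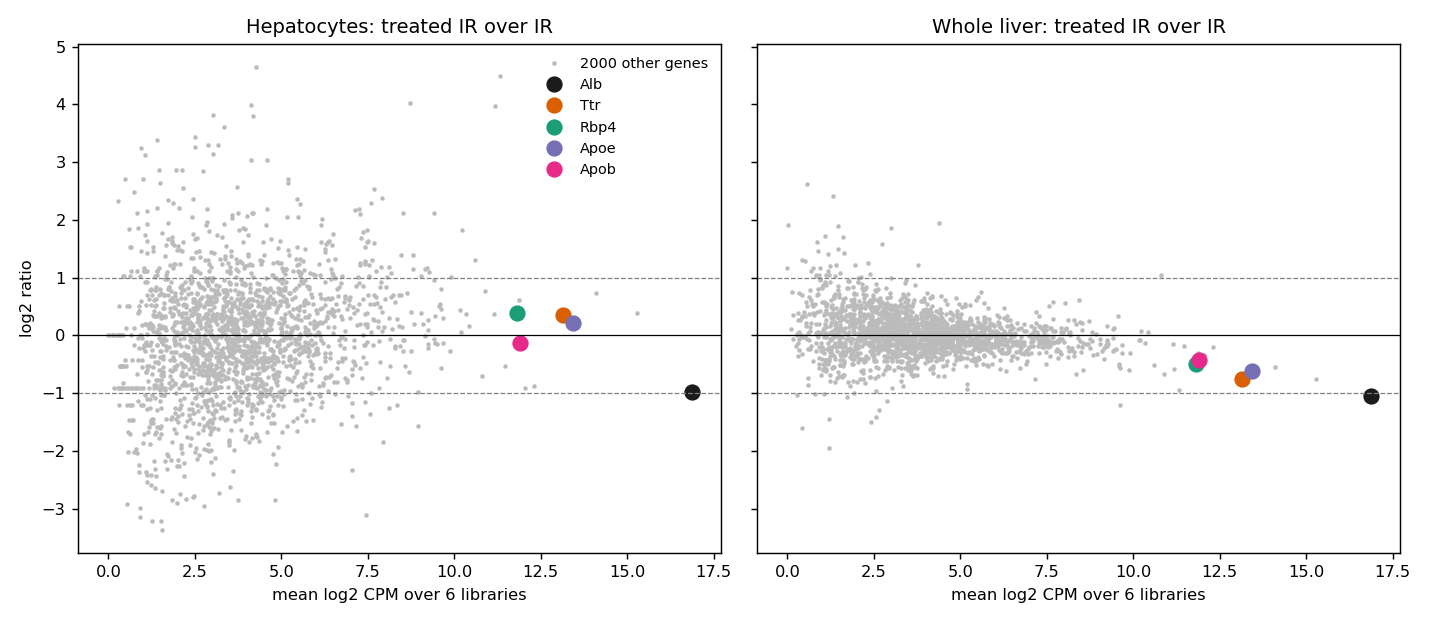
Log2 ratio of TMM-scaled CPM, treated IR over IR, against mean log2 CPM over the 6 libraries, in hepatocytes (left) and whole liver (right). Grey points are 2000 other genes drawn at random, colored points are the 5 carrier protein genes, and dashed lines mark 2-fold. Alb lies near the lower dashed line in both panels, and in liver the other 4 genes lie below 0 along with 93 of the 100 most abundant genes, against 35 of 100 with library totals.

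IR against control gives the carrier genes after injury without drugs. In hepatocytes Alb was at 200208 CPM after IR and 108659 CPM in control, a ratio of 1.84 (95% counting interval 1.84 to 1.85). In whole liver Alb was at 146135 CPM after IR and 126242 CPM in control, a ratio of 1.16 (1.15 to 1.16). The hepatocyte ratio stayed above 1 under all 6 scalings and filters. The liver ratio turned with library totals, with a lowest log2 ratio of -0.13.

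Ttr had ratios of 0.947 (0.933 to 0.960) in hepatocytes and 0.949 (0.935 to 0.963) in liver. The hepatocyte ratio was above 1 under 1 of the 6 settings. The liver ratio was below 1 under all 6, with a log2 ratio of -0.40 by library totals and -0.42 by totals without Alb. Rbp4 had a ratio of 0.996 (0.974 to 1.02) in hepatocytes and 1.23 (1.19 to 1.26) in liver, and its direction turned with scaling in both preparations. Apoe was higher after IR in both, with ratios of 1.15 (1.14 to 1.17) in hepatocytes and 1.36 (1.34 to 1.38) in liver. Apob was also higher in both, with ratios of 1.15 (1.12 to 1.17) in hepatocytes and 1.78 (1.73 to 1.83) in liver. Both lipoprotein genes kept this direction under all 6 scalings and filters. Apob in liver was at 4507 CPM after IR and 2527 CPM in control.

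None of the 5 genes reached the 2-fold rule for IR against control, in hepatocytes or in liver, though Alb in hepatocytes did with library totals that leave out Alb (log2 ratio 1.09). The rule called 16.5% of all genes in hepatocytes and 5.98% in liver. The median log2 ratio over the 5 genes was 0.20 in hepatocytes and 0.29 in liver, against 0.01 and 0.04 over all genes. Over the 100 most abundant genes the medians were -0.20 in hepatocytes and 0.27 in liver. With library totals they were -0.14 and -0.05, and with totals without Alb 0.01 and -0.07.

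Treated IR was also set against control. This comparison shares its libraries with those above, so its values stand beside them and add no separate support. In hepatocytes Alb had a ratio of 0.940 (0.935 to 0.945), and in liver a ratio of 0.561 (0.558 to 0.564). Ttr had ratios of 1.21 (1.19 to 1.23) in hepatocytes and 0.563 (0.554 to 0.572) in liver. Rbp4 and Apoe had ratios of 1.30 (1.27 to 1.34) and 1.34 (1.32 to 1.36) in hepatocytes, and of 0.867 (0.843 to 0.891) and 0.892 (0.878 to 0.907) in liver. Apob had ratios of 1.05 (1.02 to 1.08) in hepatocytes and 1.32 (1.29 to 1.36) in liver. Except for Apob in hepatocytes, these directions held under the 6 scalings and filters. The 2-fold rule called 0 of the 5 genes in either preparation, against 8.32% of all genes in hepatocytes and 7.2% in liver.

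**Figure D3:**
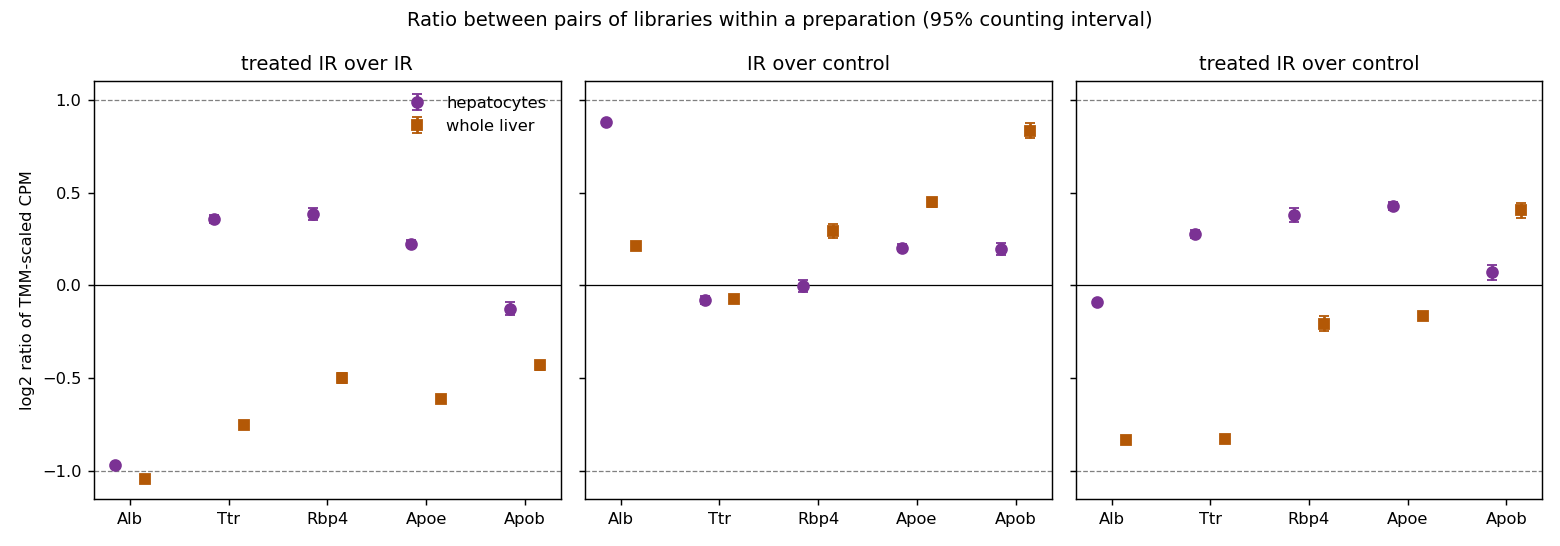
Log2 ratio of TMM-scaled CPM between 2 libraries of one preparation for the 5 genes, with 95% counting intervals. Circles are hepatocytes, squares are whole liver, and dashed lines mark 2-fold. For treated IR over IR, Alb is at -0.97 in hepatocytes and -1.05 in liver, while Ttr, Rbp4 and Apoe are above 0 in hepatocytes, where library totals without Alb put all 3 below 0, and below 0 in liver.

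For changes common to hepatocytes and liver, edgeR's quasi-likelihood model was fitted to the 6 libraries with terms for preparation and condition, which leaves 2 residual degrees of freedom. With 1 library per group, its residual spread is that of condition responses between the preparations. Variation between pools was not measured apart from it. The p-values of the model were adjusted over all 9932 genes. Alb had a log2 change of -1.01 (SE 0.99, edgeR adjusted p = 0.981) for treated IR against IR and of 0.53 (SE 0.99, edgeR adjusted p = 0.996) for IR against control. Apob had a log2 change of 0.51 (SE 0.57, edgeR adjusted p = 0.996) for IR against control. None of the 5 genes passed in any of the 3 comparisons of conditions, nor did any have an unadjusted p under 0.05. Nor did any other gene pass: edgeR called 0% of genes for each comparison of conditions, with 332, 297 and 230 genes at an unadjusted p under 0.05 for IR against control, treated IR against IR and treated IR against control. DESeq2 called 0, 1 and 0 genes and limma-voom 0, 0 and 0, in the same order, and none was among the 5. The standard errors of the 5 genes ran from 0.57 to 0.99 log2 units. Without the library of liver after IR, edgeR called 402, 659 and 36 genes in the same order and still 0 of the 5, whose lowest edgeR adjusted p was then 0.545.

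Hepatocytes were compared with whole liver to see how far the carrier genes follow the isolation of hepatocytes. Over the 3 conditions Alb averaged 136998 ± 54839 CPM in hepatocytes and 114400 ± 39028 CPM in liver (SD, n = 3 each). The 3 values of a preparation come from 3 conditions and are not replicates, so each SD includes differences between conditions. Ttr averaged 10197 ± 1358 CPM in hepatocytes and 8442 ± 2410 CPM in liver (SD, n = 3 each). Rbp4 averaged 4292 ± 685 CPM in hepatocytes and 3080 ± 542 CPM in liver (SD, n = 3 each). Apoe averaged 12902 ± 1908 CPM in hepatocytes and 9539 ± 2170 CPM in liver (SD, n = 3 each). Apob averaged 4403 ± 306 CPM in hepatocytes and 3459 ± 995 CPM in liver (SD, n = 3 each). By TMM-scaled level the means of all 5 genes were higher in hepatocytes. By mean share of gene reads Ttr was lower in hepatocytes, at 0.908% against 0.930% in liver. Alb was nearly equal by share, at 12.55% in hepatocytes and 12.47% in liver, and Rbp4, Apoe and Apob stayed higher in hepatocytes. The levels of Rbp4 did not overlap between the preparations, with a lowest hepatocyte value of 3890 CPM and a highest liver value of 3663 CPM. Those of the other 4 genes overlapped, so 1 of 5 was apart, against 17.3% of all genes in either direction.

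None of these differences passed edgeR's test with condition as a term. The log2 changes were 0.48 for Rbp4 (SE 0.47, edgeR adjusted p = 0.933), 0.45 for Apoe (SE 0.55, edgeR adjusted p = 0.958) and 0.39 for Apob (SE 0.46, edgeR adjusted p = 0.956). They were 0.31 for Ttr (SE 0.55, edgeR adjusted p = 0.975) and 0.26 for Alb (SE 0.80, edgeR adjusted p = 0.991). With library totals the direction turned for Alb (-0.06) and Ttr (-0.0044). The same test called 5.34% of all genes, 43 higher and 487 lower in hepatocytes.

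The ratio of hepatocytes to liver varied with the condition. In treated IR libraries it was 2.07 for Ttr (95% counting interval 2.04 to 2.10), 1.96 for Rbp4 (1.92 to 2.01), 1.90 for Apoe (1.87 to 1.92), 1.44 for Alb (1.43 to 1.45) and 1.30 for Apob (1.27 to 1.33). In IR libraries it was 1.37 for Alb (1.366 to 1.374), and the other 4 genes lay between 0.958 and 1.06. In control libraries it was 0.861 for Alb (0.856 to 0.865) and 1.64 for Apob (1.59 to 1.69), with 0.961 for Ttr, 1.31 for Rbp4 and 1.26 for Apoe. Library totals, with or without Alb, turned the direction of Alb and Apob in treated IR and of Apoe in control, and totals without Alb also that of Rbp4 in control and of Ttr in IR. Under treated IR the 2-fold rule called 1 of the 5 genes, Ttr, against 19.7% of all genes. In IR and control libraries it called 0 of 5, against 17.4% and 11.1%. The call of Ttr was lost with library totals, where its log2 ratio was 0.41, against -0.02 in IR and -0.39 in control libraries. Of the 100 most abundant genes, 36 were called in the treated IR libraries, all higher in hepatocytes, with a median log2 ratio of 0.80 over the 100. With library totals 5 of the 100 were called higher and 1 lower, with a median of 0.16.

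**Figure D4:**
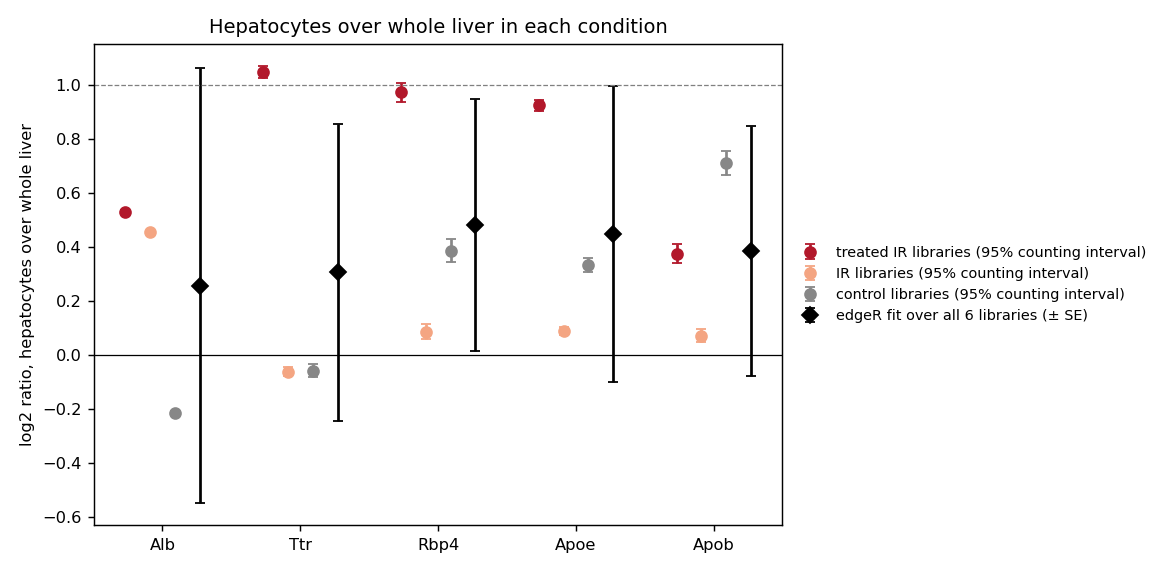
Log2 ratio of hepatocytes over whole liver for the 5 genes. Colored circles give the pair of libraries of one condition with 95% counting intervals, black diamonds the edgeR estimate over all 6 libraries ± SE, and the dashed line marks 2-fold. By TMM, Ttr reaches 1.05 in the treated IR libraries and is near 0 in the other 2 conditions. With library totals it is at 0.41 in treated IR, -0.02 in IR and -0.39 in control. The edgeR estimate ± SE spans 0 for Alb, Ttr, Apoe and Apob. For Rbp4 it only just misses 0, at 0.48 (SE 0.47, edgeR adjusted p = 0.933), and did not pass the test.

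Ratios between genes within 1 library need no scaling. They show how the carrier genes moved against each other, and only their differences between libraries are read here. Alb had 2.83 reads for every read of the other 4 genes together in hepatocytes after treated IR, 6.56 after IR and 3.77 in control hepatocytes. In liver the ratio was 3.64 after treated IR, 4.92 after IR and 5.18 in control. The lowest 2 values were those of the treated IR libraries. For treated IR over IR the factor between these ratios was 0.432 in hepatocytes and 0.740 in liver, and for IR over control it was 1.74 in hepatocytes and 0.95 in liver.

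Against each single gene Alb was lower in treated IR than in IR, in both preparations. These ratios share the Alb counts of each library, so they are not separate checks. Reads of Alb per read of Ttr numbered 8.70 in hepatocytes after treated IR and 21.8 after IR, and 12.5 in liver after treated IR and 15.3 after IR. Reads of Alb per read of Rbp4 numbered 20.1 in hepatocytes after treated IR and 51.5 after IR, and 27.3 in liver after treated IR and 39.9 after IR. The change over IR for these 8 comparisons ran from a factor of 0.390, for Rbp4 in hepatocytes, to 0.817, for Ttr in liver. Counting error is small beside these changes, but variation between pools was not measured. Control libraries held 11.2 reads of Alb per read of Ttr in hepatocytes and 12.5 in liver, the latter as after treated IR. Per read of Rbp4 they held 27.8 in hepatocytes and 42.2 in liver.

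Rbp4 and Apoe kept the closest step of all pairs of the carrier genes, and were picked out as such from these same data. Whether upstream matches to the 4 motifs bear on how the genes moved together was not tested. Reads of Rbp4 per read of Apoe stayed between 0.305 and 0.352 in all 6 libraries, a highest value 1.15 times the lowest. The other 9 pairs of genes varied by factors of 1.48 to 2.56. Ttr and Rbp4, whose proteins circulate in 1 complex, varied by a factor of 1.54: 2.31, 2.36 and 2.48 reads of Ttr per read of Rbp4 in hepatocytes after treated IR, after IR and in control, and 2.19, 2.61 and 3.37 in liver in the same order. Reads of Apoe per read of Apob, both lipoprotein genes, ran from 2.35 in liver after treated IR to 3.48 in control liver.

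**Figure D5:**
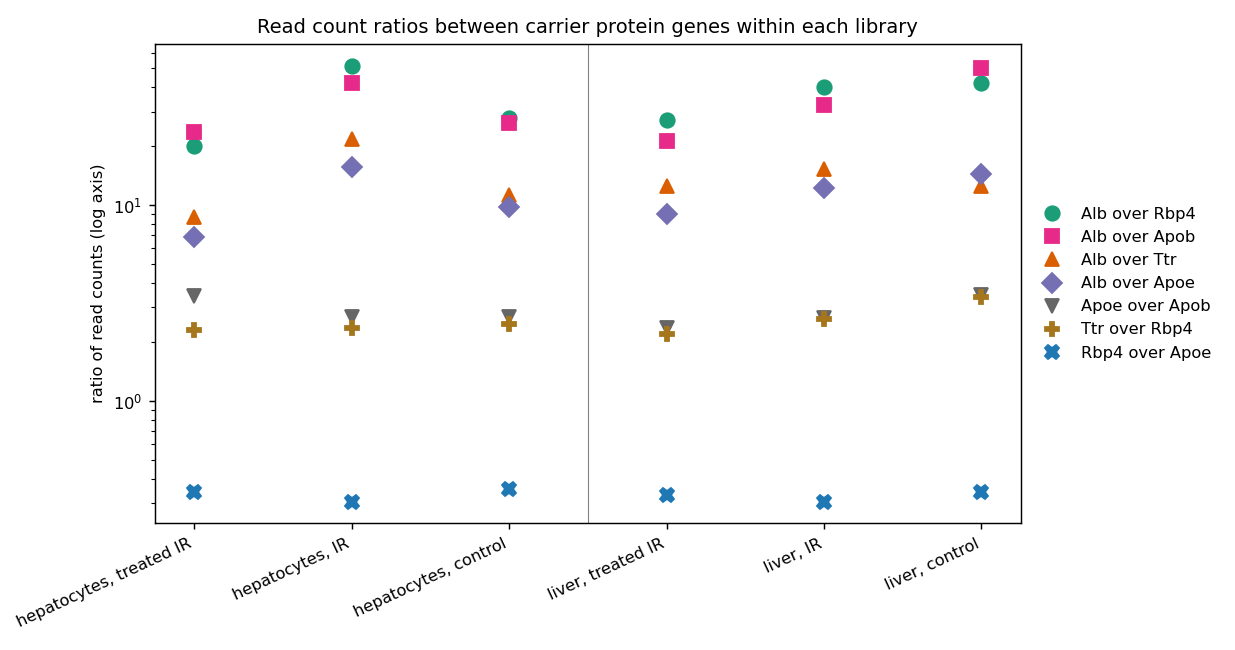
Ratio of read counts between 2 genes within each library, on a log axis, for 7 of the 10 pairs. The 4 ratios with Alb on top are high in hepatocytes after IR and lower in hepatocytes after treated IR, while Rbp4 over Apoe stays between 0.305 and 0.352.

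Genes with a pattern most like that of Alb were sought among the 957 other genes with a mean of at least 100 CPM. The measure was Pearson's r of log2 CPM over the 6 libraries, which share preparation, condition and scaling. ENSRNOG00000007862 came first (r = 0.957) and ENSRNOG00000027784 second (r = 0.953), and 7 genes had an r of at least 0.9. Both were picked as the highest of 957 values over only 6 libraries. How many genes would reach such values by chance was not computed. ENSRNOG00000027784 was at 44.1 CPM in hepatocytes after treated IR, 232 after IR and 87.8 in control hepatocytes, and at 27.5 CPM in liver after treated IR, 112 after IR and 127 in control. It spread more widely than Alb, with an SD of 1.10 log2 units against 0.51. ENSRNOG00000007862 spread less, with an SD of 0.24, from 131 CPM in liver after treated IR to 200 in hepatocytes after IR. The files do not name either gene. For Rbp4, 28 genes had an r of at least 0.9, for Apoe 15, for Apob 7 and for Ttr 5. Among the 5 genes themselves, r ran from 0.230 for Ttr and Apob to 0.967 for Rbp4 and Apoe.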

How the data were processed

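Selected mRNA was sequenced on an Ion Torrent Proton instrument, per the labels' protocols and design text. Each deposited file holds unnormalized read counts for 1 library, by Ensembl gene ID. The submitters' processing notes name TopHat2 2.0.13 and HTSeq 0.6.1, with no genome build, annotation or strand setting. Reads shared with overlapping or similar genes can therefore not be judged. Summary lines naming no gene were left out: reads outside genes made up 6.23% to 8.34% and ambiguous reads 0.358% to 0.798% of those and gene reads together.

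Genes were filtered with filterByExpr (minimum count 10) and scaled by TMM. Pairs of libraries were compared by scaled ratios with a 95% Clopper-Pearson counting interval and a 2-fold rule. Shares have Wilson intervals. Log2 CPM used a prior count of 2. The quasi-likelihood test was that of edgeR 4.0.16 in R 4.3.3 (adjusted p at most 0.05). The scripts were tested on simulated data. The alternatives were DESeq2 1.42.0 size factors and Wald test, limma-voom (limma 3.58.1), library totals with and without Alb, no filter, thinning to 1945331 reads, each library left out in turn, and a 1.5-fold rule.

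The 5 genes, the lists and the tests were chosen with earlier results of these data known. The text names the 5 genes and the 2 genes most like Alb. Lists of other carrier proteins, apolipoproteins, regulators and cell markers were planned by symbol and not run, because 0 of 26689 IDs matched the reference table.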

Additional observations from a re-analysis of the deposited data

Results flagged for a closer look

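By TMM scaling, Ttr, Rbp4 and Apoe lay on opposite sides of equality in hepatocytes and in liver, with counting intervals that exclude equality. How many of all genes lie on opposite sides in this way was not computed. For treated IR against IR, the log2 ratio was 0.36 in hepatocytes and -0.75 in liver for Ttr (a difference of 1.11), 0.39 and -0.50 for Rbp4 (0.89), and 0.22 and -0.61 for Apoe (0.84). For treated IR against control, which shares the treated libraries, it was 0.28 in hepatocytes and -0.83 in liver for Ttr (a difference of 1.11), 0.38 and -0.21 for Rbp4 (0.59), and 0.43 and -0.16 for Apoe (0.59). Over the 100 most abundant genes, the median for treated IR against IR by TMM was 0.46 in hepatocytes and -0.29 in liver. With plain library totals, the log2 ratios in hepatocytes and in liver were 0.07 and -0.36 for Ttr. They were 0.10 and -0.11 for Rbp4, and -0.07 and -0.22 for Apoe. With library totals that leave out Alb, the hepatocyte log2 ratios for treated IR against IR were below 0 for all 3 genes. With 1 library per group these differences between the preparations were not tested. Alignments that were not unique, which the counts leave out, made up 60.1% of alignments in liver after IR, against 46.3% in control liver. Their part in the ratios of the liver IR library was not tested.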

How the results depend on the processing

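All edgeR, DESeq2 and limma-voom fits, every scaling and filter and every fit without 1 library called 0 of the 5 genes for the comparisons across preparations. Hepatocytes against liver was fitted with condition as a block, and without condition as a term it also called 0. With library totals the log2 change of hepatocytes over liver reversed for Alb (-0.059) and Ttr (-0.0044). Leaving out each library in turn gave log2 changes that crossed 0 in 10 cases. For IR against control they ran from -0.38 to 0.22 for Ttr and from -0.16 to 0.42 for Rbp4. For treated IR against IR they ran from -0.76 to 0.30 for Ttr, -0.43 to 0.26 for Rbp4 and -0.56 to 0.11 for Apoe. For treated IR against control they ran from -0.84 to 0.22 for Ttr, -0.29 to 0.40 for Rbp4, -0.23 to 0.43 for Apoe and -0.014 to 0.48 for Apob, and for hepatocytes against liver from -0.082 to 0.51 for Ttr. With each library left out, Alb kept its direction in all 4 comparisons and ran from -1.23 to -0.86 for treated IR against IR. These fits leave a condition with 1 library, assumed to vary like the others. Over all genes they called 3 to 402 for IR against control and 0 to 659 for treated IR against IR, both highest without liver after IR, 0 to 37 for treated IR against control, highest without hepatocytes after IR, and 390 to 755 for hepatocytes against liver, against 0, 0, 0 and 530 with all libraries. Without a filter, 3, 31, 14 and 712 of 16548 genes were called.

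The number of the 5 genes past the 2-fold rule changed with the scaling, the filter and the fold. With library totals, with or without Alb, it was 0 in place of 1 for treated IR against IR in liver and for hepatocytes against liver in treated IR, and 1 in place of 0 for treated IR against IR in hepatocytes. By library totals 6.40%, 31.7% and 25.9% of all genes were called in these comparisons, and by totals without Alb 5.03%, 32.2% and 29.8%. Totals without Alb gave 1 in place of 0 for IR against control in hepatocytes (18.9% of all genes), and no filter 1 in place of 0 for treated IR against IR in hepatocytes (14.5% of 16548 genes). A 1.5-fold rule called 3 of the 5 genes for treated IR against IR in liver (7.43% of all genes) and for hepatocytes against liver in treated IR (33.5%), and 2 for treated IR against control in liver (14.7%). It called 1 each for IR against control in liver (12.5%) and in hepatocytes (30.5%), for treated IR against IR in hepatocytes (36.5%) and for hepatocytes against liver in control (17.8%). Computing these shares was decided with the data in view. The cause was not tested.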
